A study of Drosophila melanogaster with 75 samples.

Results

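Insulin and the adipokinetic hormone set how an adult fly stores and spends sugar and fat, and the genes described here belong to that circuit or answer to it. The 10 genes considered were *tobi*, *bmm*, *foxo*, *Pepck1*, *InR*, *ImpL2*, *Ilp6*, *chico*, *srl* and *Lip4*. A gene was measured by the probe sets that the array's annotation assigns to it and to no other gene. By this rule 8 of the 10 had a probe set, out of 11981 genes with a probe set of their own on the array. No probe set of *Ilp6* or *srl* was named in the annotation used, and both genes were not analysed here. Each of the 8 had 1 probe set, and 7 of them were bright enough to be tested, *InR* being the exception.

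Head RNA was measured on 15 Affymetrix Drosophila Genome 2.0 arrays, which carry short oligonucleotide probes for each transcript. All males were isogenized Canton-S wild-type flies, 5 days old, raised as virgins and then housed singly, and no mutation, transgene or change of diet is named for any group. Mated males were placed with a virgin female and frozen 2 hrs after mating ended, courted males were placed with a cauterized virgin female, and control males received no female. Each group had 5 arrays and each array held a pool of 30 male heads, so p-values measure the spread between pools of 1 isogenized line.

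When sugar is plentiful, insulin-like peptides released from brain neurosecretory cells bind the insulin receptor, encoded by *InR*. The adaptor protein encoded by *chico* carries the signal on to phosphoinositide 3-kinase and Akt, and Akt keeps the transcription factor encoded by *foxo* out of the nucleus. When insulin falls, as in fasting, foxo enters the nucleus and turns on genes that mobilize stores and dampen growth, while adipokinetic hormone, the fly counterpart of glucagon, acts on the fat body. The fat body is the adipose and liver-like tissue that in the head surrounds the brain. A whole head mixes fat body, brain, eye, muscle and blood cells, so fewer cells of a type and less RNA per cell cannot be told apart in these values.

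Values are log2 intensities from the GC-RMA algorithm, which corrects probe signals for background by their base content and brings the arrays to a common distribution. Levels of different genes rest on different probes and were not set against each other. Between 40.1% and 40.9% of probe sets exceeded an intensity of 100 on an array, and 2 arrays of the series had correlations of 0.993 to 0.999 across probe sets. Of the fat body markers *fit*, *Lsp2*, *apolpp*, *Mtp* and *to*, 4 had a probe set and all 4 were above 100. The secretory peptides *Ilp2* and *Ilp5* of the insulin-producing cells were both above 100, and 0 of 6 testis and accessory gland markers were. Of 3 neuronal markers with a probe set only *nSyb* was above 100, while *elav*, an RNA-binding protein of all neurons, averaged an intensity of 10.2 on these arrays. *Akh*, the adipokinetic hormone gene of the corpora cardiaca, averaged 3.32 in each group.

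The first question was whether mated heads differed from control heads in these genes. In mated heads *tobi*, *bmm*, *foxo* and *Pepck1* had lower levels than in control heads, by 0.22 to 0.52 on the log2 scale, and 3 of these 4 were lower in all 5 pairs of arrays. *ImpL2* was lower on average but with a wide spread in control heads, *chico* and *InR* lay close to 0 difference, and *Lip4* had a higher mean in mated heads. No difference passed the threshold of an adjusted p of 0.05 in the paired limma fit over 7621 probe sets, of which 0.0% were called. At an unadjusted limma p under 0.05, 4 of the 7 tested genes were lower in mated heads and 0 were higher. The same rule called 5.85% of all probe sets lower and 3.74% higher. The 10 genes were listed with earlier results of these data known, so counts of them beside such shares are not independent evidence.

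*tobi* (target of brain insulin) encodes an alpha-glucosidase, and its transcript is known to respond to diet, to insulin-producing cells and to adipokinetic hormone. Its log2 intensity in mated replicates 1 to 5 was 10.20, 10.61, 10.65, 10.65 and 10.74. It was 10.83, 10.98, 10.93, 10.65 and 10.76 in courted heads and 11.14, 11.01, 11.59, 11.10 and 10.64 in control heads. All 5 mated arrays lay below 4 of the 5 control arrays, and control replicate 5 lay inside the mated range. Courted arrays fell between the groups, 4 of them above every mated array. The log2 fold change of mated against control heads was -0.52 ± 0.15 (SE, limma, n = 5 pairs, adjusted p = 0.400), or 0.695-fold with a 95% confidence interval of 0.547 to 0.884. The pairs differed by -0.93, -0.41, -0.94, -0.45 and 0.10, so 4 of 5 pairs were lower in mated heads. *tobi* is among the genes that the study itself listed from these arrays, so its direction here is not independent evidence.

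*bmm* (brummer) encodes the triglyceride lipase of fat body lipid droplets, the fly counterpart of adipose triglyceride lipase, and is switched on by foxo. Mated heads had log2 intensities of 11.38, 11.23, 11.07, 11.08 and 11.34. Courted heads had 11.39, 11.55, 11.24, 11.53 and 11.40, and control heads had 11.58, 11.71, 11.24, 11.38 and 11.64. Control replicates 3 and 4 lay inside the mated range and the other 3 control arrays above it. *bmm* had the lowest p of the tested genes in this comparison (log2 fold change -0.29 ± 0.06, SE, limma p = 0.00123, adjusted p = 0.232), with 5 of 5 pairs lower in mated heads. All 5 pairs were lower for *bmm*, *foxo* and *Pepck1*, 3 of the 7 tested genes, a pattern that 6.67% of all probe sets showed. The pair differences of *bmm* ran from -0.48 in pair 2 to -0.17 in pair 3.

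**Figure D1:**
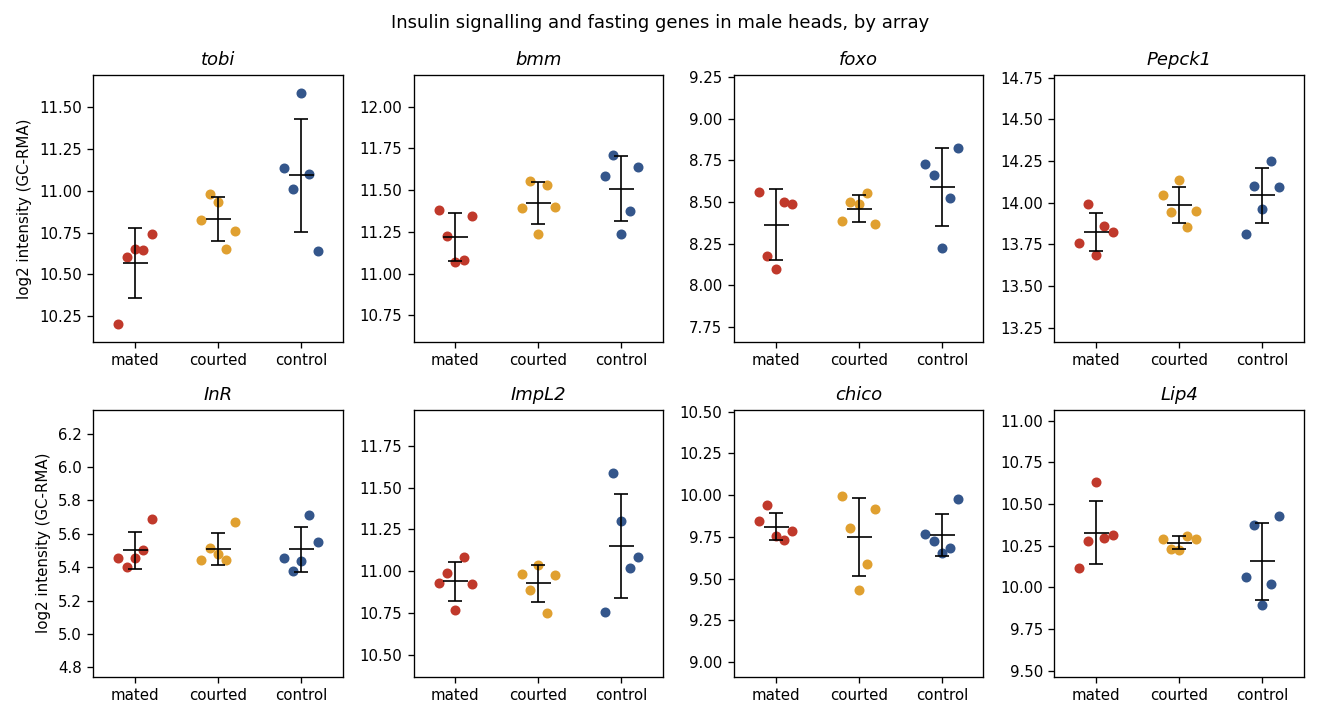
Log2 GC-RMA intensity of the 8 measured genes (y axis, a span of equal height in each panel) in mated, courted and control male heads. Each point is 1 array, the bar is the mean and the whiskers are the SD of 5 arrays. *tobi*, *bmm*, *foxo* and *Pepck1* have their lowest mean in mated heads and their highest in control heads, with overlap between the groups.

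*foxo* encodes the forkhead factor that insulin signalling restrains, and an array reads its transcript, not the place of the protein in the cell. Its log2 intensity was 8.56, 8.17, 8.10, 8.50 and 8.49 in mated heads. The values were 8.39, 8.50, 8.49, 8.55 and 8.37 in courted heads and 8.73, 8.66, 8.22, 8.53 and 8.82 in control heads. Control replicates 1, 2 and 5 were above every mated array, and replicates 3 and 4 were not. All 5 courted arrays lay inside the mated range. The log2 fold change of mated against control heads was -0.23 ± 0.07 (SE, limma p = 0.0151, adjusted p = 0.478), with 5 of 5 pairs lower. Pair 4 differed by only -0.03 and pair 2 by -0.49. *foxo* depended on the pairing: without the replicate number as a block its limma p was 0.0946 in place of 0.0151.

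*Pepck1* encodes phosphoenolpyruvate carboxykinase, the enzyme that commits carbon to gluconeogenesis and that rises with fasting in fat body. In mated heads its log2 intensities were 13.76, 13.99, 13.68, 13.86 and 13.82. They were 14.04, 13.95, 14.14, 13.85 and 13.95 in courted heads and 13.81, 14.10, 13.96, 14.25 and 14.09 in control heads. Of the control arrays, replicates 1 and 3 lay inside the mated range and the other 3 above it, so the groups overlapped. The log2 fold change was -0.22 ± 0.06 (SE, limma p = 0.00753, adjusted p = 0.394), or 0.859-fold, and all 5 pairs were lower in mated heads, from -0.05 in pair 1 to -0.39 in pair 4. *Pepck2*, a paralog of the same enzyme family named here after its values were seen, had a log2 fold change of -0.57 ± 0.25 (SE, limma p = 0.0532, adjusted p = 0.521). Its mated value of 8.91 in replicate 2, against 10.68 in control replicate 2, was far below the other mated arrays, which lay at 9.71 to 10.19.

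**Figure D2:**
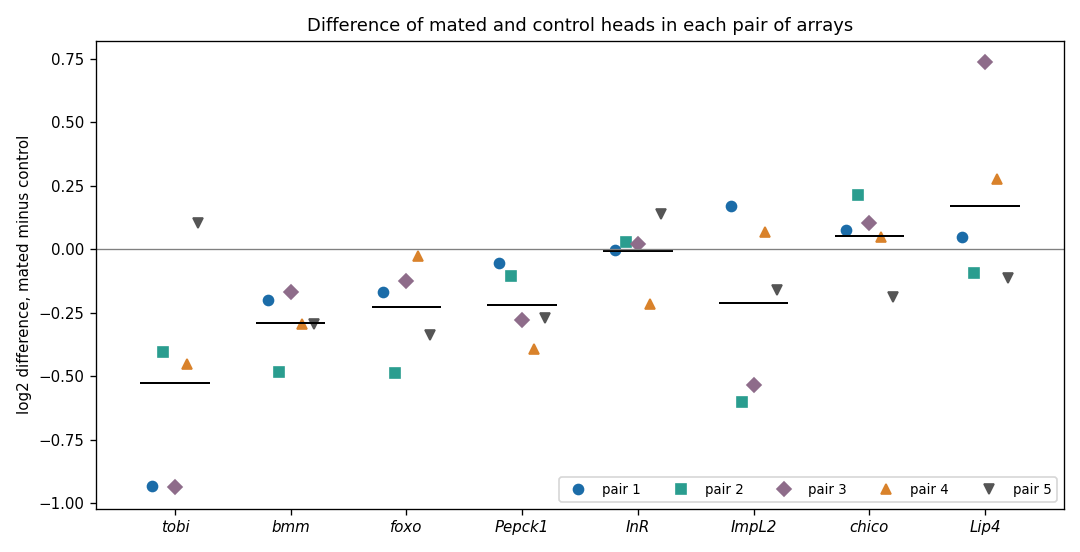
Log2 difference of mated minus control heads (y axis) in each of the 5 pairs of arrays for the 8 measured genes, with the mean as a black line. *bmm*, *foxo* and *Pepck1* are below 0 in 5 of 5 pairs and *tobi* in 4 of 5, while *ImpL2*, *InR*, *chico* and *Lip4* have pairs on both sides of 0.

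*ImpL2* encodes a secreted protein that binds insulin-like peptides and antagonizes them. Its log2 intensities were 10.93, 10.99, 10.77, 11.08 and 10.93 in mated heads. Courted heads had 10.98, 10.89, 11.03, 10.75 and 10.98, and control heads had 10.76, 11.59, 11.30, 11.02 and 11.09. The control arrays held the lowest value and the 3 highest values of the mated and control arrays together, with an SD of 0.31 against 0.12 in mated and 0.11 in courted heads. The log2 fold change of mated against control heads was -0.21 ± 0.12 (SE, limma, adjusted p = 0.569), with pairs 2 and 3 at -0.60 and -0.53 and pairs 1 and 4 above 0. With the dChip PM algorithm, which models perfect match probes only, *ImpL2* was lower in 5 of 5 pairs (log2 fold change -0.23, limma p = 0.0308, adjusted p = 0.472).

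*chico* had log2 intensities of 9.84, 9.94, 9.76, 9.73 and 9.79 in mated heads. In control heads they were 9.77, 9.73, 9.65, 9.68 and 9.98, and courted heads spread from 9.43 to 9.99. The log2 fold change of mated against control heads was 0.05, with a 95% confidence interval of -0.10 to 0.20, and 4 of 5 pairs were higher in mated heads. The groups overlapped fully, and the difference was within the spread between arrays.

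*Lip4* encodes a lipase that rises in fasted flies through foxo. Its log2 intensities were 10.11, 10.28, 10.63, 10.30 and 10.32 in mated heads, against 10.06, 10.37, 9.90, 10.02 and 10.43 in control heads. Courted heads were the tightest group, at 10.23 to 10.31. The mated mean was higher, by 0.17 ± 0.12 on the log2 scale (SE, limma, adjusted p = 0.640), but that rested on pair 3 at 0.74, and 2 of the 5 pairs were lower. Without replicate 3 the log2 fold change was 0.03, the lowest value over the replicates left out in turn.

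*InR* averaged 5.50 ± 0.11 in mated heads, 5.51 ± 0.09 in courted heads and 5.51 ± 0.13 in control heads (SD, n = 5 each), below the intensity threshold of 100 in every group. Without the filter its log2 fold change of mated against control heads was -0.01, with a 95% confidence interval of -0.15 to 0.13. With dChip PM, where it passed a threshold of 50, it was 0.08 ± 0.10 (SE, limma, adjusted p = 0.829). A value this dim bounds a change in *InR* only loosely.

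*tobi*, *bmm*, *foxo* and *Pepck1* kept their direction under other algorithms. With dChip PM the log2 fold changes of mated against control heads were -0.44 for *tobi*, -0.23 for *bmm*, -0.21 for *foxo* and -0.14 for *Pepck1*. With MAS5.0, the older Affymetrix signal, they were -0.51, -0.19, -0.14 and -0.24. The limma p of *foxo* was 0.00340 with dChip PM and 0.124 with MAS5.0, where only 3 of 5 pairs were lower. Over 12 alternatives the adjusted p of *bmm* ranged from 0.140 to 0.649 and that of *tobi* from 0.157 to 0.887, so neither was called under any.

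Cell markers were read beside these values. Marker intensities were summed before the log2 was taken, so the brightest gene weighs most. The log2 of the summed intensity of the 4 fat body markers was 15.31 to 15.46 in mated heads. The same sum was 15.26 to 15.38 in courted heads and 15.24 to 15.39 in control heads. Its members did not move together: *fit* was higher in mated heads than in control heads by 0.56 (limma, adjusted p = 0.113), with all 5 mated arrays above all 5 control arrays. Such a separation was seen in 0.433% of all probe sets. *Lsp2*, a storage protein, was lower, at -0.41 (adjusted p = 0.322), while *apolpp* and *Mtp*, both of lipoprotein assembly, differed by 0.03 and 0.06. *Ilp2* and *Ilp5* differed by -0.04 and -0.01, and the summed level of both was 11.70 to 12.00 in mated heads and 11.69 to 12.03 in control heads. Summed glial and haemocyte markers also ran higher in mated heads, with some overlap. Among single glial markers *repo* and *nrv2* were at 0.08 and 0.16, while *moody* was at -0.04. The summed level of 4 glial markers was 14.32 to 14.51 in mated heads and 14.17 to 14.34 in control heads, and *Gs2*, glutamine synthetase, was at 0.16 ± 0.06 (SE, limma p = 0.0202, adjusted p = 0.495), with all 5 mated arrays above all 5 control arrays, again a pattern of 0.433% of probe sets. That of 5 haemocyte markers was 12.58 to 12.88 in mated heads and 12.31 to 12.60 in control heads, and the scavenger receptor gene *crq* was at 0.22 ± 0.09 (SE, limma p = 0.0338, adjusted p = 0.497). Of all probe sets, 3.74% were higher in mated heads at an unadjusted limma p under 0.05. Summed muscle and neuronal markers overlapped between mated and control heads, at 12.26 to 12.63 against 12.33 to 12.86 for muscle and 10.50 to 11.32 against 10.40 to 11.35 for neurons. *trp*, the photoreceptor marker measured, differed by -0.01. The part of cell composition in the differences of *tobi*, *bmm*, *foxo* and *Pepck1* was not tested.

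The pairing of courted arrays is less sure than that of mated and control arrays. Pool codes in the labels give equal numbers the same letter in all groups, yet courted replicates 2 and 4 deviated from their group mean in the opposite direction to the same-numbered mated arrays (correlation across probe sets of -0.45 and -0.44). For courted heads 0 of the 7 genes passed an adjusted p of 0.05 with the block or without it.

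The second question was what courtship without mating did to the same genes. Courted heads had lower means than control heads for 6 of the 7 tested genes, as did 48.5% of 7637 probe sets. At an unadjusted limma p under 0.05 stood 0 of the 7 genes, against 3.3% of probe sets, and 0.0% were called by adjusted p. *tobi* stood furthest from 0, at -0.26 ± 0.12 on the log2 scale (SE, limma p = 0.0639, adjusted p = 0.988), and 4 of 5 pairs were lower. Without the block its limma p was 0.0988. *ImpL2* was at -0.22 ± 0.13, also lower in 4 of 5 pairs. *foxo* was at -0.13, *bmm* at -0.09, *Pepck1* at -0.06, *chico* at -0.01 and *Lip4* at 0.11, and their 95% confidence intervals all held 0. For *bmm* the interval of -0.26 to 0.09 reaches close to the mated value of -0.29. With dChip PM and with MAS5.0 the unadjusted limma p of *tobi* was 0.0356 and 0.00990, and its adjusted p was 0.847 and 0.992.

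Mated and courted heads were then compared directly, since both groups share the control arrays in the comparisons above. *bmm* was lower in mated heads than in courted heads, at -0.20 ± 0.08 on the log2 scale (SE, limma p = 0.0357), and so was *tobi*, at -0.26 ± 0.10 (limma p = 0.0376), each in 5 of 5 pairs and each with an adjusted p of 0.982. Of all 7636 probe sets, 2.28% were lower at an unadjusted p under 0.05, against 2 of the 7 tested genes, and 4.24% were lower in all 5 pairs. Here too the genes were listed with earlier results of these data known. Without the replicate block the limma p was 0.0307 for *bmm* and 0.0272 for *tobi*. The pairs, whose numbers may not match courted to mated pools, were uneven. *tobi* differed by -0.62, -0.37 and -0.28 in pairs 1 to 3, by -0.0036 in pair 4 and by -0.02 in pair 5, so the count of 5 rests on differences close to 0. *bmm* differed by -0.01 in pair 1 and by -0.45 in pair 4. *Pepck1* was at -0.16 ± 0.08 (limma p = 0.0965, and 0.0414 without the block). *foxo* was at -0.10, *ImpL2* at 0.01, *chico* at 0.06 and *Lip4* at 0.06, with 95% confidence intervals that all held 0. With MAS5.0 neither *tobi* (limma p = 0.115) nor *bmm* (limma p = 0.239) was under 0.05, and leaving out replicate 2, or replicate 3, put 0 of the 7 genes under it.

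**Figure D3:**
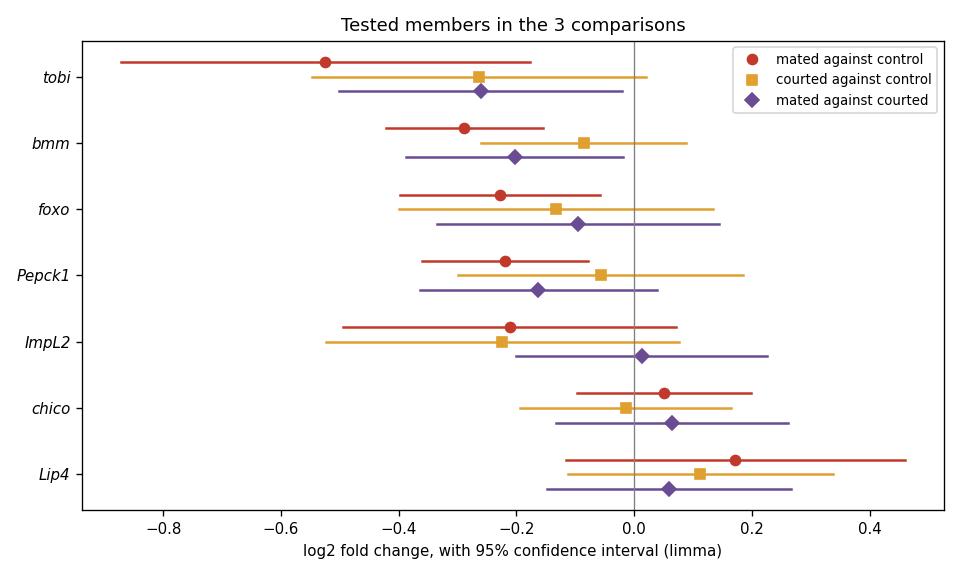
Log2 fold change (x axis) of the 7 tested genes in mated against control, courted against control and mated against courted heads, with 95% confidence intervals from limma (n = 5 pairs). The intervals of *tobi*, *bmm*, *foxo* and *Pepck1* lie below 0 for mated against control, and those of *tobi* and *bmm* also for mated against courted, before adjustment over all probe sets.

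The rest of the circuit was read from lists of genes by role. These lists were also chosen with earlier results of these data known, so their counts are not independent evidence. Among insulin-like peptides 2 of 8 listed genes were bright enough to test, *Ilp2* and *Ilp5*, and their median log2 fold change in mated against control heads was -0.02, beside -0.01 over all probe sets. Of the receptor and binding proteins, *Sdr*, a secreted decoy of the insulin receptor, was lower in 5 of 5 pairs, with a log2 fold change of -0.08 ± 0.04 (SE, limma, adjusted p = 0.558). In insulin signal transduction 8 genes were tested, at a median of 0.08, beside -0.01 over all probe sets. *foxo* was below 0 and the others lay between 0.03 and 0.11. Of those others 0 had an unadjusted limma p under 0.05.

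In TOR signalling, the growth branch that senses amino acids, 1 of 11 tested genes had an unadjusted p under 0.05, a share near that of all probe sets (5.85% lower and 3.74% higher). It was *Tsc1*, a subunit of the complex that restrains TOR, at 0.14 ± 0.05 (SE, limma p = 0.0312, adjusted p = 0.497). It was higher in all 5 pairs, as were 3.57% of probe sets. The list's median was 0.02. Energy sensing had 3 tested genes and 0 under 0.05, and *AMPKalpha*, the catalytic subunit of the kinase that reads cellular AMP, was at -0.08 ± 0.07 (adjusted p = 0.694).

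Of 10 listed foxo target genes 6 were tested, and *Thor*, for which the annotation used named no probe set, was not analysed here. The study itself listed *Thor* among the genes lower after mating on these arrays. Of the 6, only *bmm*, already described above, was lower at an unadjusted p under 0.05 and 0 were higher, beside 5.85% and 3.74% of all probe sets. The median of the list was -0.05. The list of adipokinetic hormone and lipid mobilization genes had 9 tested, 3 of them lower at an unadjusted p under 0.05 and 0 higher, beside 5.85% and 3.74% of all probe sets, at a median of -0.01. Beside *tobi* and *bmm* the third was *whd*, the carnitine palmitoyltransferase that admits fatty acids into mitochondria, at -0.19 ± 0.06 (SE, limma p = 0.0188, adjusted p = 0.495). Its log2 intensities were 11.69, 11.64, 11.55, 11.66 and 11.48 in mated heads, against 11.75, 11.92, 11.72, 11.70 and 11.87 in control heads. All 5 mated arrays lay below all 5 control arrays, a pattern of 0.997% of probe sets.

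In gluconeogenesis, glycogen and trehalose 0 of 10 tested genes passed the adjusted threshold, and values lay on both sides of 0. Of the 10, 2 were lower at an unadjusted p under 0.05, *Pepck1* and the glycogen branching enzyme gene *AGBE* (-0.18 ± 0.06, SE, limma p = 0.0171, adjusted p = 0.495), and 1 was higher, beside 5.85% and 3.74% of all probe sets. The higher gene was *PCB*, pyruvate carboxylase, which makes the substrate of phosphoenolpyruvate carboxykinase. *PCB* had 13.91, 13.93, 13.94, 13.99 and 13.95 in mated heads, against 13.68, 13.68, 13.88, 13.75 and 13.76 in control heads. Every mated array was above every control array, as in 0.433% of probe sets, and the log2 fold change was 0.19 ± 0.05 (SE, limma p = 0.00395, adjusted p = 0.322). *PCB* and *Pepck1*, consecutive steps of gluconeogenesis, thus differed in sign. A second, much dimmer probe set of *PCB* was at -0.11 with a limma p of 0.829.

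In lipid synthesis and sugar response 1 of 8 tested genes was under 0.05, a share near that of all probe sets. It was *Lpin*, the phosphatidate phosphatase of triglyceride synthesis, at -0.15 ± 0.05 (SE, limma p = 0.0206, adjusted p = 0.495) and lower in 5 of 5 pairs. The median of the list was -0.05.

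**Figure D4:**
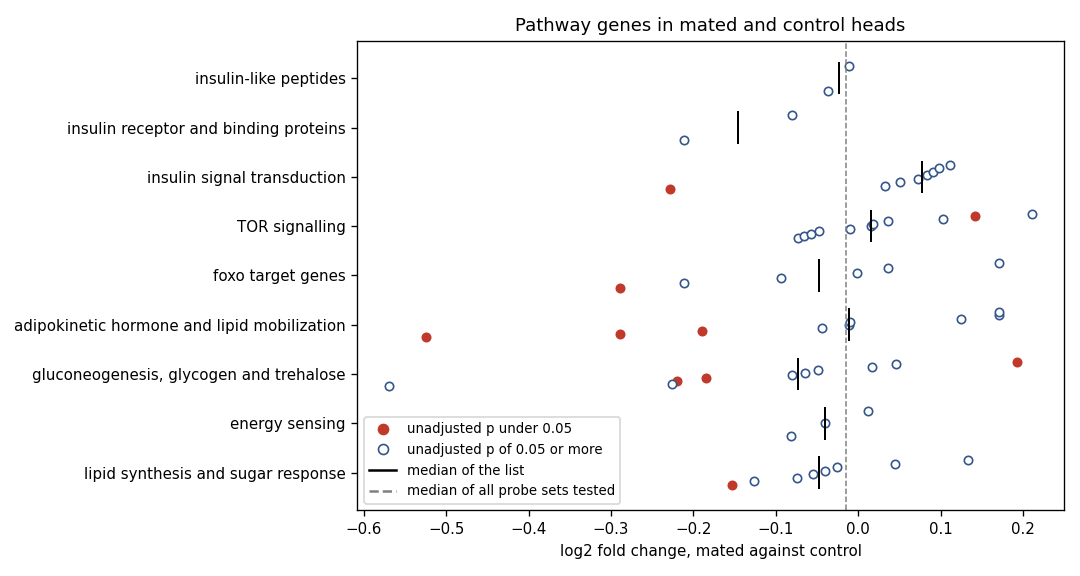
Log2 fold change of mated against control heads (x axis) for each tested gene of 9 lists, one row per list. Filled points have an unadjusted limma p under 0.05, black bars are list medians and the dashed line is the median of all probe sets. Some genes stand in several lists, and the medians lie between -0.15 and 0.08.

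Between courted and control heads no gene of these lists passed the adjusted threshold. An unadjusted limma p under 0.05 was found for 1 of 8 tested genes of insulin signal transduction and 1 of 6 foxo targets. It was also found for 2 of 9 genes of lipid mobilization and 1 of 8 of lipid synthesis and sugar response. The other lists had 0, and 3.3% of all probe sets were under 0.05. *sug* (sugarbabe), a zinc finger factor induced by dietary sugar, was lower in courted heads, at -0.26 ± 0.10 (SE, limma p = 0.0336), as was *daw*, an activin-like hormone that foxo controls, at -0.21 ± 0.08 (limma p = 0.0399). *HDAC4*, the deacetylase that acts on foxo, was higher by 0.17 ± 0.06 (limma p = 0.0210). *AkhR*, the receptor of adipokinetic hormone, was higher by 0.13 ± 0.05 (limma p = 0.0419) and *Lsd-1*, a coat protein of lipid droplets, by 0.26 ± 0.11 (limma p = 0.0489). All of these had an adjusted p of 0.988. A second, dimmer probe set of *AkhR* was at 0.07 with a limma p of 0.290. The lowest p of the other lists belonged to *Sesn*, *Pepck2*, *AMPKalpha*, *Ilp5* and *ImpL2*, with log2 fold changes of 0.11, -0.46, -0.16, -0.03 and -0.22 and none under 0.05.

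Between mated and courted heads *sug* was the gene of these lists with the lowest p. Its log2 intensities were 9.22, 9.03, 8.98, 8.92 and 8.97 in mated heads, against 8.92, 8.74, 8.80, 8.89 and 8.67 in courted heads. All 5 mated arrays were above all 5 courted arrays, a pattern of 0.34% of probe sets, and control heads spanned both, at 8.81 to 9.40. The log2 fold change was 0.22 ± 0.06 (SE, limma p = 0.00783, adjusted p = 0.982). In the same list *mdy*, the acyltransferase of the last step of triglyceride synthesis, was lower in mated heads, at -0.14 ± 0.05 (limma p = 0.0277), as was *Mondo*, a sugar-sensing factor, at -0.13 ± 0.05 (limma p = 0.0445), both in 5 of 5 pairs. These were 2 of 8 tested genes, while 2.28% of all probe sets were lower at an unadjusted p under 0.05. In all 5 pairs 4.24% of probe sets were lower, and pair numbers may not match courted to mated pools. *PCB* was higher by 0.11 ± 0.05 (limma p = 0.0533), again with no overlap. The lists of insulin-like peptides, binding proteins, TOR signalling and energy sensing had 0 genes under 0.05.

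Finally, the 7 tested genes were compared with each other over the 15 arrays after each group's mean was subtracted, which gives 21 pairs of genes on the same arrays. No pair passed an adjusted p of 0.05 over the 21 in a two-sided permutation test. The shuffling treated the 15 values of a gene as independent, though subtracting group means ties them together. The permutation p-values therefore tend to be too low. *bmm* and *foxo* had the lowest p (Pearson r = 0.68, Spearman rho = 0.65, permutation p = 0.00509 and 0.0111, adjusted p = 0.0794 and 0.232). Without the 2 arrays farthest from the median of *bmm*, control replicates 2 and 3, r was 0.57. By the same rule r was 0.17 with dChip PM, without control and mated replicate 3. It was 0.03 with MAS5.0, without control and courted replicate 3. *tobi* and *foxo* had r = -0.65 and rho = -0.43 (permutation p = 0.00851 and 0.115, adjusted p = 0.0794 and 0.518), and *tobi* and *bmm* had r = -0.62 and rho = -0.56 (permutation p = 0.0113 and 0.0337, adjusted p = 0.0794 and 0.354). Without control replicates 3 and 5 r was -0.29 for *tobi* and *foxo*, which rested on those arrays, and -0.40 for *tobi* and *bmm*. With MAS5.0 r was 0.27 for *bmm* and *foxo*, -0.13 for *tobi* and *foxo* (rho = 0.06) and -0.64 for *tobi* and *bmm*. With dChip PM these were 0.56, -0.61 and -0.49. With the replicate block also subtracted they were 0.65, -0.46 and -0.53 (permutation p = 0.00973, 0.0886 and 0.0421, adjusted p = 0.118, 0.266 and 0.203). Subtracting the block ties the values further, so the limit on the permutation p-values is stronger here.

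**Figure D5:**
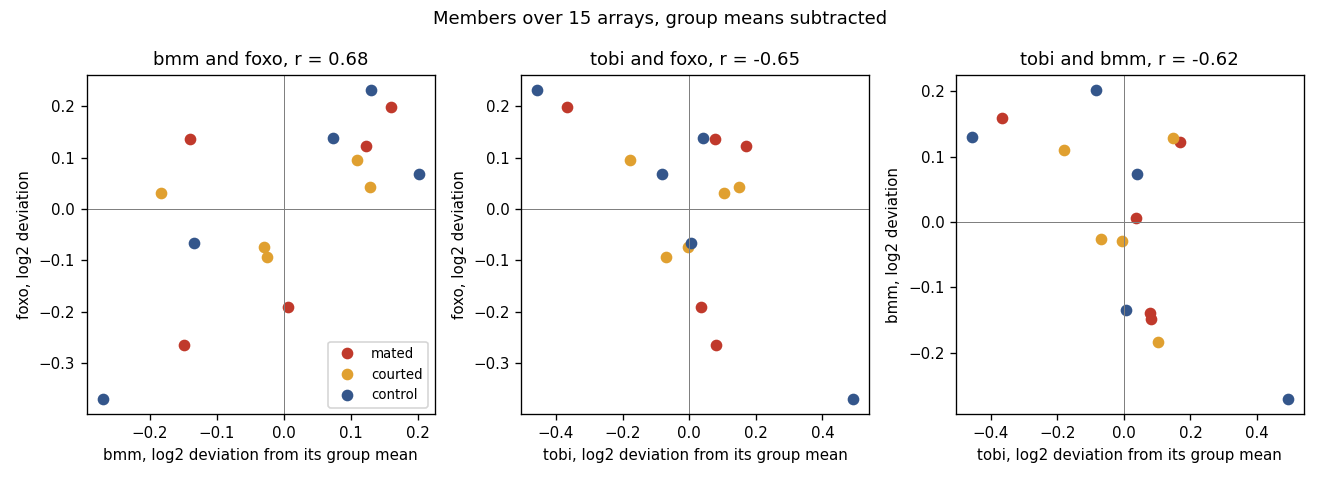
Deviation of 1 gene from its group mean (x axis, log2) against that of another (y axis, log2) over 15 arrays, coloured by mated, courted and control group, for the 3 pairs of genes with the lowest p. r is 0.68 for *bmm* and *foxo*, -0.65 for *tobi* and *foxo* and -0.62 for *tobi* and *bmm*, with control replicates 3 and 5 at the ends of the *tobi* axis.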

How the data were processed

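The deposited table held 75 columns of linear intensity, made by the authors with dChip PM, dChip PM-MM, MAS5.0 in GCOS 1.2, GC-RMA (once in R/Bioconductor and once in GeneSpring) for each of 15 arrays. The 5 versions of an array counted as 1 replicate. Intensities under 1 were set to 1 and log2 transformed, without further normalization. The table held 18952 probe sets, of which 183 controls were left out. Annotation assigned 13646 to 1 gene, 402 to several and 4721 to none. Coordinates were not used. The GeneSpring values are empty at place 3092 and stand 1 place lower from there on (correlation with R/Bioconductor GC-RMA of 0.0124 as deposited and 0.988 moved up), so they were not used, and neither were the PM-MM values. The number of arrays limits the precision.

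R/Bioconductor GC-RMA was the main data set, with dChip PM and MAS5.0 as alternatives. Probe sets with a mean intensity above 100 (50 for dChip PM) over the 10 compared arrays were fitted with limma 3.58.1 in R 4.3.3 (lmFit, eBayes) on the 2 compared groups, blocked by replicate number, and p-values were adjusted by Benjamini-Hochberg over every probe set in the fit. The methods say that control and mated samples collected together were kept as pairs, and same-numbered mated and control arrays deviated together (correlations of 0.33, 0.46, 0.48, 0.43 and 0.09). Other fits dropped the intensity filter or the block, used all 15 arrays, a variance trend or a test in the manner of Cyber-T, which the methods name (window 101, confidence 10), or left out each replicate number. Scripts were tested on simulated data. Where a gene had several probe sets, the brightest stood for it. Correlations used 100000 permutations (Python 3.11.15, numpy 2.4.6, scipy 1.17.1). The genes and lists were chosen with earlier results of these data known. All of the genes are named. Of each list, the genes with an unadjusted p under 0.05 are named, up to 4, or else the gene with the lowest p, with *14-3-3zeta* left out.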

Additional observations from a re-analysis of the deposited data

Results flagged for a closer look

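Of the 24 groups of 5 arrays (8 genes in mated, courted and control heads), 1 held an array far from the others by Dixon's criterion, which flags about 1 in 20 groups by chance. In mated heads the *tobi* value of replicate 1 was the lowest of its group at 10.204 on the log2 scale, and the nearest mated array was at 10.61. Without replicate 1 in both groups the log2 fold change of *tobi* in mated against control heads was -0.42 (limma p = 0.0326, adjusted p = 0.511), against -0.52 with it. Against courted heads it was -0.17 without replicate 1 (limma p = 0.101), and -0.26 with it.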

How the results depend on the processing

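In mated against control heads all 7 tested genes kept their direction under the 12 alternatives. Over all 3 comparisons 243 values kept it and 9 did not, and 0 of the 7 genes passed an adjusted p of 0.05 under any. A fold change is the same by construction without the filter or the block, in the fit over 15 arrays and with the variance trend. The same holds for the Cyber-T style test. Only the other algorithms and the replicates left out could change a direction. Over all probe sets, 1 was called for mated against control heads without the replicate block, 3 in 1 fit over 15 arrays, 9 with the variance trend and 12 in the manner of Cyber-T, and 0 to 1 when a replicate was left out (1 without replicate 4). For mated against courted heads 3 were called without the block, 4 in the fit over 15 arrays, and 0 to 1 with a replicate left out. The counts of the 7 genes at an unadjusted p under 0.05 were 3 to 5 for mated against control heads, and 3 without the block. For courted against control heads the count was 1 with dChip PM, MAS5.0 and the Cyber-T style test, and 0 to 1 with a replicate left out. For mated against courted heads it was 0 with MAS5.0, 1 without the intensity filter, in the fit over 15 arrays and in the Cyber-T style test, 3 without the block, and 0 to 2 with a replicate left out. The replicate block changed no other call by adjusted p. In courted against control heads *chico* was at 0.027 with MAS5.0, and with a replicate left out it ranged from -0.075 to 0.037 and *Pepck1* from -0.129 to 0.028. In mated against courted heads *ImpL2* was at -0.026 with dChip PM and -0.021 with MAS5.0, and with a replicate left out it ranged from -0.069 to 0.082 and *Lip4* from -0.028 to 0.118. Without subtraction of group means 1 pair of genes, *bmm* and *foxo*, had an adjusted permutation p under 0.05 by Pearson r (r = 0.75, adjusted p = 0.0313). By Spearman rho the same pair (rho = 0.76, adjusted permutation p = 0.0323) and *Pepck1* with *ImpL2* (rho = 0.72, adjusted permutation p = 0.0363) were under it. The cause of these changes was not tested. Of 13 values of other list genes with an unadjusted p under 0.05, 13 kept their sign under every alternative and 0 passed an adjusted p of 0.05. These 13 were picked for that p, and not all stayed under 0.05. They did so in 4 of 12 alternatives for *daw* (courted against control), the fewest. The most were 11, for *PCB* (mated against control) and *sug* (mated against courted). Of all 26 named values, 4 had the other sign under at least 1 alternative. *InR* was too dim to limit a change.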
